A study of Xenopus laevis with 16 samples.

Results

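PVD2 morphant whole embryos of Xenopus laevis at stage 9, the late blastula, were compared with control morphants of the same stage, which gave 4 of the 16 arrays of the series, 2 per group. PVD2 is a mixture of morpholinos against all 3 POUV genes: Xlpou91, whose current symbol is pou5f3.1, together with Xlpou25 (symbol pou5f3.2) and also Xlpou60 (symbol pou5f3.3). Embryos of both groups received 60 ng of morpholino in each blastomere at the 2-cell stage, the PVD2 mixture or the control morpholino, and were left intact until collection. RNA of 3 embryos was pooled per sample, labelled with Cy3 and hybridized on an Agilent Xenopus array beside a Cy5-labelled common reference, RNA of whole embryos pooled over many stages. The other arrays of the series held stage 10 whole embryos and animal caps, the explanted ectoderm, of stages 9 and 10. The comparison asked which transcripts depended on POUV activity in the intact embryo before gastrulation. Uninjected embryos were not part of it, and the dyes were not swapped.

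POUV proteins are the Xenopus relatives of mammalian Oct4 and bind octamer motifs together with Sox partners. Oct4 is known for holding embryonic stem cells in a pluripotent state, and the POUV proteins for keeping cells of the blastula and gastrula from differentiating early. A morpholino binds an mRNA and blocks its translation or splicing, so the level of the targeted transcript need not fall. In whole embryos, a lower level of a transcript can come from fewer cells that make it or from less RNA per cell, and these cannot be told apart.

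Each array measured 21495 probes. The value of a probe is given as the log2 of the authors' processed value, which is comparable between arrays for 1 probe but not between probes. A probe was counted as well above background on an array where the scanner software had flagged at least 1 of its 2 spots so in Cy3. The 10025 probes that met this on all 4 arrays are called bright here. Changes are PVD2 minus control on the log2 scale with the standard error (SE) from limma, and a probe was called changed at an adjusted p under 0.05 (Benjamini-Hochberg over all 21495 probes).

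The PVD2 arrays had 61.6% and 63.6% of probes well above background, against 49.95% and 52.0% on the control arrays. The median net Cy3 signal was 35.0 and 27.5 on the PVD2 arrays, against 31.7 and 17.8 on the control arrays. Outlier spots numbered 23 and 130 on the PVD2 arrays, against 1153 and 460 on the control arrays. On both slides the PVD2 array lay at position 2 and the control array at position 1, so the position on the slide and the morpholino cannot be told apart. Markers of the regions of the embryo were present: 4 of 5 probes for vegetal and germ plasm transcripts, 4 of 4 for the animal pole and ectoderm, 3 of 3 for the marginal zone and 2 of 4 for the organizer were bright. The organizer genes sia1.L and gsc.S were the exceptions there, and no probe of these markers was called changed.

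Of the targeted genes, Xlpou91 (pou5f3.1.L) had log2 values of 12.91 and 11.19 in PVD2 embryos, against 12.53 and 12.50 in control embryos. The PVD2 replicates thus lay on either side of the controls, and the change of −0.46 ± 0.43 (SE) was not called (adjusted p = 0.631, limma). Xlpou60 (pou5f3.3.L) had 17.80 and 17.86 in PVD2 embryos, against 17.82 and 17.70 in control embryos, a change of 0.07 ± 0.21 (SE, adjusted p = 0.935). No probe was named for Xlpou25. These transcript levels do not check the depletion, which acts on the protein.

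Among bright probes, 82 fell in PVD2 embryos (0.818% of 10025) and 40 rose (0.399%). All 122 moved in the same direction in both replicate pairs, which the call itself favours. Over all bright probes the differences of the replicate pairs correlated with r = 0.235. The 82 falls had a median of −1.12, with quartiles of −1.69 and −0.77, 45 of them over 2-fold and 11 over 4-fold. The 40 rises had a median of 0.75 and ran from 0.48 to 1.22, 7 of them over 2-fold and 0 over 4-fold. Over all bright probes the median change was 0.10. The split between falls and rises depended on scaling, with 191 lower and 11 higher after median centring and 106 and 16 after quantile normalization. The calls among bright probes moved with single arrays: 237 without control replicate 1 (97 lower and 140 higher), 57 without control replicate 2 and 50 without PVD2 replicate 2. From the scanner intensities with normexp background correction and loess, limma called 0 bright probes, with 466 at an unadjusted p under 0.05. In that processing 81 of the 81 measured falls kept their direction with a median of −0.77, and 66 of them (81.5%) had an unadjusted p under 0.05, against 4.65% of all bright probes. The 40 rises kept theirs with a median of 0.26, and 12 (30%) had an unadjusted p under 0.05. Both sets were chosen by their calls on these same arrays, so these shares are no independent check. The sizes given below for single falls come from the processed values, and several were smaller with normexp. There arg1.L changed by −1.90, hunk.S by −1.04, MGC68910 by −0.75, pag by −0.89 and htra1.S by −0.77. Not all shrank: adamts1.L (−2.54) and tdgf1.3.L (−0.81) stayed about the same, and spry2.S (−1.06) fell slightly more.

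**Figure D1:**
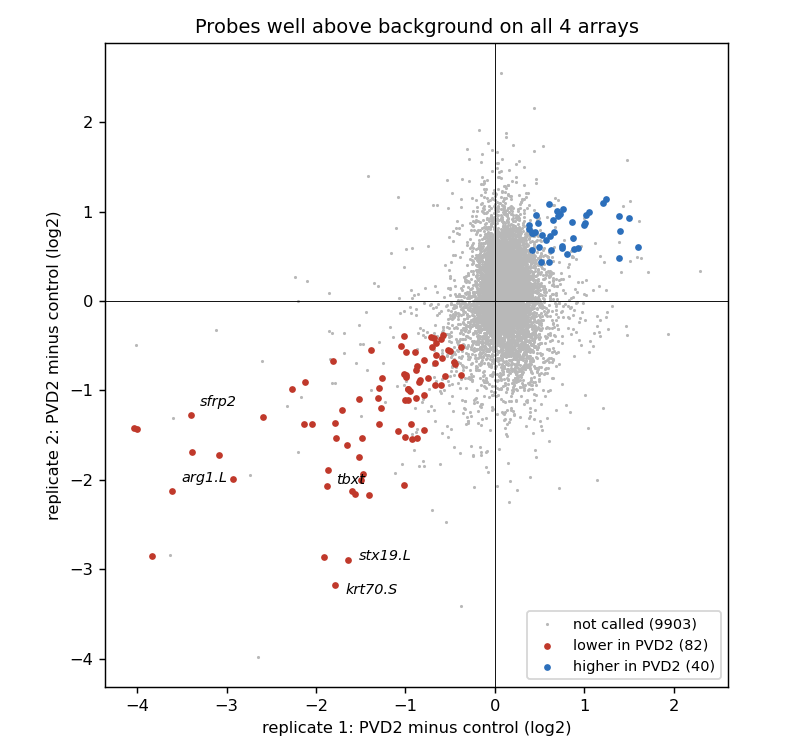
PVD2 minus control (log2) in replicate pair 2 against replicate pair 1 for the 10025 probes well above background on all 4 arrays. The 82 probes that fell (red) lie at the lower left with arg1.L at −2.87 as the mean of both pairs, and the 40 that rose (blue) lie at the upper right with rises of up to 1.22 as the mean of both pairs.

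Transcription factors of the early embryo were among the falls. Brachyury (tbxt), the T-box factor of the mesoderm, had log2 values of 7.92 and 7.66 in PVD2 embryos, against 9.79 and 9.73 in control embryos, and was 3.92-fold lower (−1.97 ± 0.34, SE, adjusted p = 0.0146). The replicates of either group lay close together in these values. With normexp and loess, tbxt changed by −0.84 (unadjusted p = 0.0545, limma). The LIM homeodomain factor lhx5.S had 11.44 and 11.85 in PVD2 embryos, against 12.95 and 12.95 in control embryos, and was 2.47-fold lower (SE of the log2 change 0.17, adjusted p = 0.00459). The zinc finger repressor prdm1 (Blimp1) had 8.70 and 8.53 in PVD2 embryos, against 10.96 and 9.51 in control embryos. It fell by 1.62 ± 0.28 (SE, adjusted p = 0.0149), with most of the spread between the control replicates.

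Smaller falls among transcription factors were seen for the forkhead factor foxi4.2 (−0.99, adjusted p = 0.0461), the E-protein tcf12.S (−0.73, adjusted p = 0.0121, picked after its values were seen) and xbp1, a regulator of the unfolded protein response (−0.57, adjusted p = 0.0341; all limma). foxi4.2 had 14.16 and 13.65 in PVD2 embryos, against 15.04 and 14.74 in control embryos. A second probe annotated as foxi4.2 changed by −0.02 (adjusted p = 0.991, limma). The array file names these probes XFD2 and XFD2', so they may measure separate copies of the gene. The Krüppel-like factor klf17.1.S had 5.24 and 6.09 in PVD2 embryos, against 7.90 and 7.55 in control embryos (adjusted p = 0.00367). It was well above background on 1 of 2 PVD2 arrays and both control arrays. Its change was −2.06, but only −0.53 with normexp and loess. Chosen after its values were seen, the probe for the spalt factor Sall1 (MGC68418) changed by −1.95 (adjusted p = 0.0377), with 9.83 and 10.51 in PVD2 embryos, against 12.43 and 11.81 in control embryos. Also picked afterwards, MGC81567, annotated with the mouse homolog Tead1, a TEA-domain factor, changed by −0.97 (adjusted p = 0.033).

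Some secreted signals and modulators were also among the falls, while the Nodal, BMP and Wnt lists as a whole had medians near 0. sfrp2, a secreted Wnt-binding protein, had log2 values of 9.95 and 10.68 in PVD2 embryos, against 13.35 and 11.96 in control embryos. It was 5.06-fold lower (−2.34 ± 0.41, SE, adjusted p = 0.0157), more in the first pair (−3.40) than in the second (−1.28). admp.S, a BMP-like ligand of the organizer, had 11.41 and 10.97 in PVD2 embryos, against 12.90 and 12.97 in control embryos, and was 3.36-fold lower (adjusted p = 0.00997). The secreted serine protease htra1.S had 8.58 and 7.80 in PVD2 embryos, against 9.59 and 9.87 in control embryos (−1.54, adjusted p = 0.016). tdgf1.3.L, described in the array file as FGF receptor ligand 1, belongs to the EGF-CFC family of Nodal co-receptors. It had 15.74 and 15.82 in PVD2 embryos, against 16.49 and 16.68 in control embryos, and fell by 0.80 ± 0.18 (SE, adjusted p = 0.0399).

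Both homeologs of sprouty 2, an intracellular antagonist that receptor tyrosine kinase signalling induces, were lower. spry2.L had 12.20 and 12.36 in PVD2 embryos, against 13.49 and 13.74 in control embryos, and fell by 1.33 ± 0.12 (SE, adjusted p = 0.00196). spry2.S had 11.50 and 11.66 in PVD2 embryos, against 12.44 and 12.66 in control embryos, and fell by 0.97 ± 0.12 (SE, adjusted p = 0.00437). The replicates of these probes were close, and both stayed called whichever of the 4 arrays was left out. fgf8.L, an FGF ligand, changed by −0.95 (adjusted p = 0.0576) and did not pass the threshold. The receptor tyrosine kinase pag, annotated with the mouse homolog Epha4, had 7.56 and 7.51 in PVD2 embryos, against 9.12 and 9.67 in control embryos (−1.86, adjusted p = 0.00583).

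The named falls also held enzymes of amino acid and carbohydrate metabolism. arg1.L encodes arginase, which splits arginine into ornithine and urea. It had log2 values of 8.31 and 8.55 in PVD2 embryos, against 11.92 and 10.68 in control embryos, and was 7.31-fold lower (−2.87 ± 0.36, SE, adjusted p = 0.00407). hal.1.L, histidine ammonia-lyase, had 10.46 and 10.55 in PVD2 embryos, against 13.39 and 12.55 in control embryos, and was 5.5-fold lower (adjusted p = 0.016). In both genes the PVD2 replicates were closer together than the control replicates. pdk4.L, a kinase that inactivates pyruvate dehydrogenase, had 11.18 and 10.88 in PVD2 embryos, against 13.32 and 12.25 in control embryos, and was 3.37-fold lower (adjusted p = 0.00433). The array file describes this probe as isoenzyme 2, and the reference names it pdk4.L. Picked after their values were seen, phosphoglucomutase (pgm1.L) fell by 1.06 (adjusted p = 0.011) and the complex I subunit ndufs3.L by 0.83 (adjusted p = 0.0139). The pgm1.L values overlapped across slides, with 12.33 and 13.82 in PVD2 embryos, against 13.59 and 14.68 in control embryos.

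Further probes of this kind carry no gene symbol in the tables and were picked after their values were seen. MGC53198, described as similar to glycine amidinotransferase, the first enzyme of creatine synthesis, had 8.16 and 9.17 in PVD2 embryos, against 12.17 and 10.60 in control embryos (−2.72, adjusted p = 0.0262). MGC68579, annotated with the mouse homolog Pdk2, changed by −2.40 (adjusted p = 0.00464). MGC80198, annotated with glycogen phosphorylase Pygb, changed by −1.87 (adjusted p = 0.00625), and MGC83262, annotated with the glucose transporter Slc2a2, by −1.71 (adjusted p = 0.0196). MGC81884 and MGC81990, both annotated with the lipid phosphatase Ppap2b, changed by −1.71 (adjusted p = 0.00196) and −1.65 (adjusted p = 0.00227). Of the 12 bright probes on a list of metabolic enzymes and transporters drawn up with earlier results of these data, 3 fell, namely arg1.L, hal.1.L and pdk4.L, against 0.818% of all bright probes, and 0 rose. These members were chosen from the same data. In both pairs 3 members were lower and 3 higher (25% each), against 12.7% lower and 46.4% higher of all bright probes. The list median was −0.01, against 0.10 over all bright probes.

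Other single falls were on genes for a matrix protease, a keratin and a syntaxin. adamts1.L, a secreted metalloprotease, had log2 values of 10.92 and 12.50 in PVD2 embryos, against 14.31 and 14.19 in control embryos. It was 5.81-fold lower (−2.54 ± 0.54, SE, adjusted p = 0.0338), and here the spread lay between the PVD2 replicates. krt70.S, a type I cytokeratin, had 11.14 and 11.33 in PVD2 embryos, against 12.93 and 14.50 in control embryos, and was 5.59-fold lower (adjusted p = 0.00767). stx19.L, a syntaxin, had 12.40 and 11.04 in PVD2 embryos, against 14.04 and 13.94 in control embryos, and was 4.81-fold lower (adjusted p = 0.0224). MGC68910, annotated with the serine protease Prss27, had 8.45 and 7.11 in PVD2 embryos, against 10.05 and 9.24 in control embryos (−1.87, adjusted p = 0.00687). DG42 (MGC52910), a hyaluronan synthase picked after its values were seen, had 14.04 and 13.71 in PVD2 embryos, against 15.56 and 15.45 in control embryos (−1.63, adjusted p = 0.008). Also picked afterwards, calponin 2 (cnn2), an actin-binding protein, changed by −1.15 (adjusted p = 0.0382).

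Both homeologs of the kinase hunk (MAK-V) fell. hunk.S had 8.59 and 7.13 in PVD2 embryos, against 10.51 and 9.99 in control embryos, and was 5.23-fold lower (adjusted p = 0.0238). hunk.L had 9.91 and 8.58 in PVD2 embryos, against 11.40 and 10.12 in control embryos, and was 2.86-fold lower (adjusted p = 0.00268). The groups did not overlap for either homeolog. In either group the hunk.L value of the first slide was above that of the second, and its pair differences, −1.49 and −1.54, were close. MGC82602, similar to a hemoglobin alpha chain, had 8.51 and 9.58 in PVD2 embryos, against 10.16 and 11.19 in control embryos (−1.63, adjusted p = 0.00378). Here the second slide had the higher value in either group, and the pair differences were −1.65 and −1.61. Probes eef1a1o.S and eef1a-s, for elongation factor 1 alpha, which brings aminoacyl-tRNA to the ribosome, both changed by −0.92 (adjusted p = 0.0335 and 0.0169) and were also picked afterwards. They are near-identical genes whose probes may share signal.

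**Figure D2:**
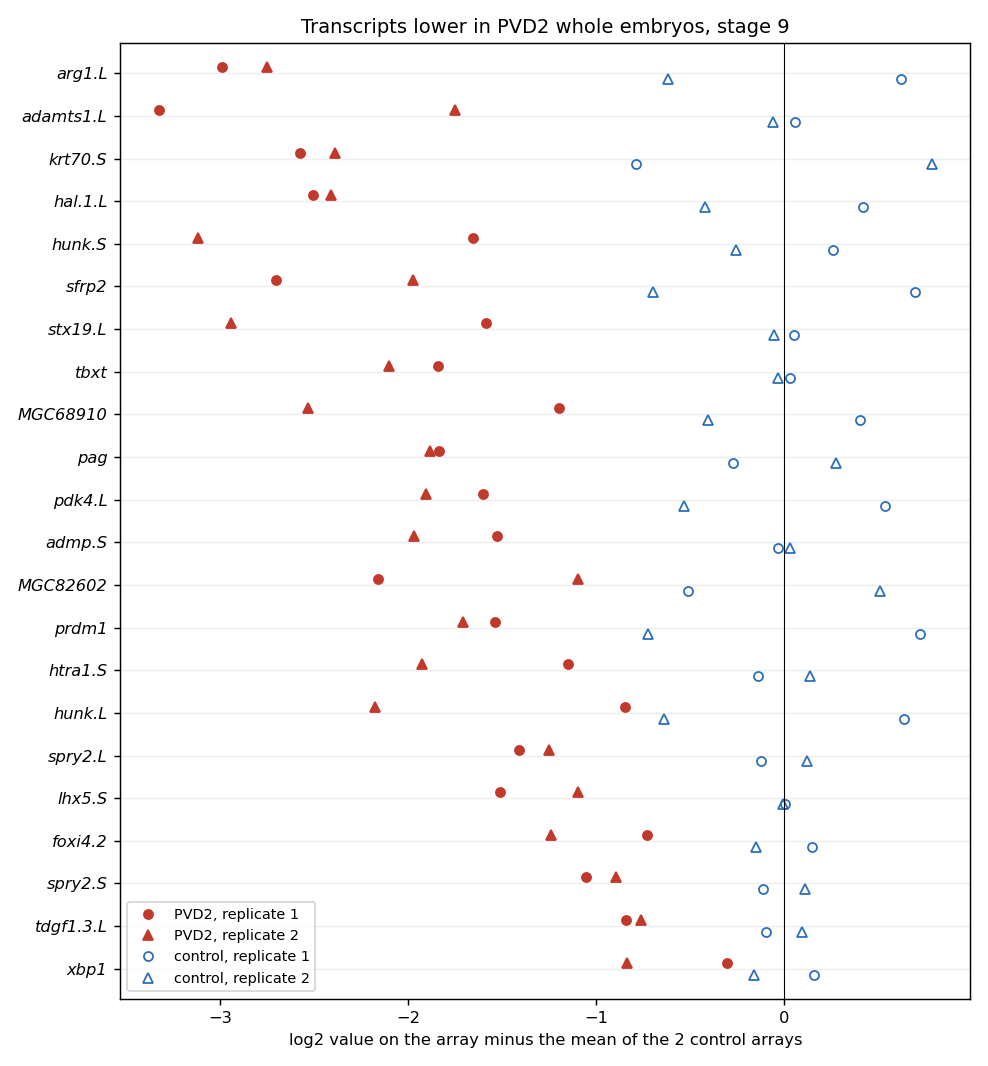
Log2 value of each array minus the mean of the 2 control arrays for 22 named bright transcripts that fell (PVD2 filled red above, control open blue below, circle for replicate 1 and triangle for replicate 2). Every PVD2 point lies left of both control points of its gene, with a change of −2.87 for arg1.L in the top line and −0.57 for xbp1 in the bottom line.

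Leaving out 1 array at a time kept the direction of all 22 named bright falls, which the lack of overlap between their groups made likely beforehand. Of these, 7 stayed called in each of the 4 fits: arg1.L, pdk4.L, MGC82602, hunk.L, spry2.L, lhx5.S and spry2.S. The other 15 lost the call in at least 1 fit, with an adjusted p of 0.0506 to 0.271 there (limma). Without control replicate 1, 14 of the 22 were called, without control replicate 2 there were 10, without PVD2 replicate 1 there were 15, and without PVD2 replicate 2 there were 11. sfrp2 changed by −1.62 without control replicate 1 and −1.65 without PVD2 replicate 1, and adamts1.L by −1.76 without PVD2 replicate 1. krt70.S changed by −1.83 without control replicate 2, hunk.S by −1.71 without PVD2 replicate 2, and prdm1 by −1.08 without control replicate 1. foxi4.2, tdgf1.3.L and xbp1 were called in 0 of the 4 fits.

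Most genes on the lists for germ layers and signalling were not called one by one. The lists were drawn up with earlier results of these data known, so their shares are descriptions and no test. For each list, the bright probes that changed in the same direction in both pairs are counted beside the same share over all 10025 bright probes, where PVD2 embryos were lower in both pairs for 12.7% of probes and higher for 46.4%. List members without a call are given as values, and several of them were picked for mention after their values were seen. On the list of POUV and pluripotency factors, 9 of 13 bright probes were lower in both pairs (69.2%), 1 was higher, and 0 were called. The median change was −0.46, against 0.10 over all bright probes. That median is the value of pou5f3.1.L, itself targeted by the morpholinos, whose pairs changed by 0.39 and −1.31. The homeobox repressor ventx1.1 had log2 values of 9.18 and 8.79 in PVD2 embryos, against 10.57 and 9.78 in control embryos (−1.19, adjusted p = 0.0504), with no overlap between the groups. The Krüppel-like factor klf17.L changed by −1.12 (adjusted p = 0.052) and the progenitor factor sox2.L by −0.94 (adjusted p = 0.054). The sox2.L values were 10.70 and 11.71 in PVD2 embryos, against 11.41 and 12.88 in control embryos, so the groups overlapped across slides while both pairs were lower. sox3 changed by −0.39 (adjusted p = 0.157) and sall4 by 0.03.

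Organizer genes were lower in both pairs for 11 of 16 bright probes (68.8%), with 0 higher in both, and 2 were called, sfrp2 and admp.S. The list median was −0.67, with −0.21 in the first pair and −1.03 in the second. The forkhead factor foxa4.S changed by −1.52 (adjusted p = 0.0789) and the Wnt antagonist dkk1.S by −1.01 (adjusted p = 0.113). Some members were lower almost only in the second pair. The secreted antagonist cer1.S changed by −0.08 in the first pair and −1.91 in the second, the homeobox factor hhex.L by 0.14 and −1.81, and frzb by −0.15 and −1.68. These 3 were not called. Outside the bright class some members went the other way. sia2.S was higher in both pairs and called, as given below, and sia1.L changed by 0.80 and 2.63 without a call. Over all 23 probes of the list the median was −0.28.

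Endoderm genes were lower in both pairs for 11 of 15 bright probes (73.3%), with 0 higher in both and 0 called, and a median of −0.49. Again the second pair moved more, with a median of −0.66 against −0.25 in the first. The homeobox factor mix1 changed by −1.17 (adjusted p = 0.107), bix1.2.S by −0.96 (adjusted p = 0.122) and the Sox factor sox17b.1 by −0.57 (adjusted p = 0.151). vegt, the maternal T-box factor above these genes, had 15.99 and 15.94 in PVD2 embryos, against 16.27 and 16.17 in control embryos (−0.25, adjusted p = 0.387), and a second vegt probe changed by −0.14. The mesoderm list was lower in both pairs for 8 of 18 bright probes with a median of −0.20 and 1 call, tbxt. The T-box factor eomes.S changed by −1.30 (adjusted p = 0.26), and hoxd1 by 0.84 (adjusted p = 0.0505).

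Ectodermal genes had changes of either sign. On the list for the early neural plate, 6 of 13 bright probes were lower and 2 higher in both pairs, with a median of −0.18, and lhx5.S fell as given above. The zinc finger factor zic2 changed by 0.23 (adjusted p = 0.484). Of 14 bright non-neural ectoderm probes, 1 fell (foxi4.2), and 5 were lower and 5 higher in both pairs. The AP-2 factor tfap2a.S changed by −0.45 (adjusted p = 0.11), and the homeobox factors dlx3.L and dlx5 by 0.98 (adjusted p = 0.133) and 0.67 (adjusted p = 0.214). The ectodermal forkhead factor foxi1 changed by −2.34 with an SE of 0.82 and was not called (adjusted p = 0.174).

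Among bright probes the signalling lists had 1 or 2 calls each, beside the 0.818% of bright probes called lower and 0.399% called higher. In lists this short a single call is already a larger share than that. Outside the bright class the Wnt list (48 probes in all) had 5 called lower and 1 higher. The Nodal and activin list (30 in all) had 2 lower and 1 higher there, and the BMP, FGF and Notch lists had 0. Of all probes outside that class, 6.63% were called lower and 1.98% higher. The Nodal and activin list had 1 of 22 bright probes called (tdgf1.3.L) with a median of 0.03. The BMP list had 1 of 23 called (admp.S) with a median of 0.03, and its ventral targets ventx1.1 and ventx2.1.L changed by −1.19 and −1.15 without passing the threshold. The Wnt list had 1 of 27 called (sfrp2) with a median of 0.05. The FGF list had 2 of 20 called, the sprouty 2 homeologs, with a median of −0.09. On the Notch list 1 of 13 rose, rbpj.S, the DNA-binding partner of the Notch intracellular domain, and the median was 0.01. That call was lost without any 1 of the 4 arrays. The small positive medians of the Nodal, BMP, Wnt and Notch lists turned negative, to between −0.17 and −0.13, with each array centred on its median. Centring shifted the change of every probe by the same −0.18. The place of a list beside all bright probes, whose median was 0.10 before centring, therefore did not change.

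Adhesion and cell biology lists had 0 or 1 call each among bright probes. Of all bright probes 0.818% were called lower, a smaller share than 1 call in such a list. Of 32 bright probes for cadherins, junctions, integrins and matrix, 1 fell (adamts1.L), 7 were lower in both pairs (21.9%) and 9 higher (28.1%). Over all bright probes these pair shares were 12.7% and 46.4%. Outside the bright class this list had 3 called lower and 0 higher, where 6.63% and 1.98% of such probes were. Its median of 0.17 became −0.01 with arrays centred on their medians, by the same shift. E-cadherin (cdh1) changed by −0.05 (adjusted p = 0.911) and C-cadherin (cdh3.S) by −0.19 (adjusted p = 0.463). Of the 4 bright Eph receptor and ephrin probes 0 were called, with efna3.L at −0.61 (adjusted p = 0.0566). The list was matched by gene symbol and so does not hold pag, annotated with Epha4, which fell as given above. Germ plasm and maternal oocyte transcripts had 0 of 29 called and a median of 0.04. Cell cycle genes had 0 of 58 called and a median of 0.05, with the kinase pbk.L at −0.76 (adjusted p = 0.0569) and ccne2 at −1.18 (adjusted p = 0.0823). Ribosomal proteins had 0 of 19 called and a median of −0.09. HMG proteins, histones and FACT had 0 of 28 called, 19 higher in both pairs (67.9%) and a median of 0.14, which became −0.04 with arrays centred on their medians. hmgb3 went against these at −0.56 (adjusted p = 0.0726). Of 10 bright p53, apoptosis and stress probes, 1 fell (xbp1).

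**Figure D3:**
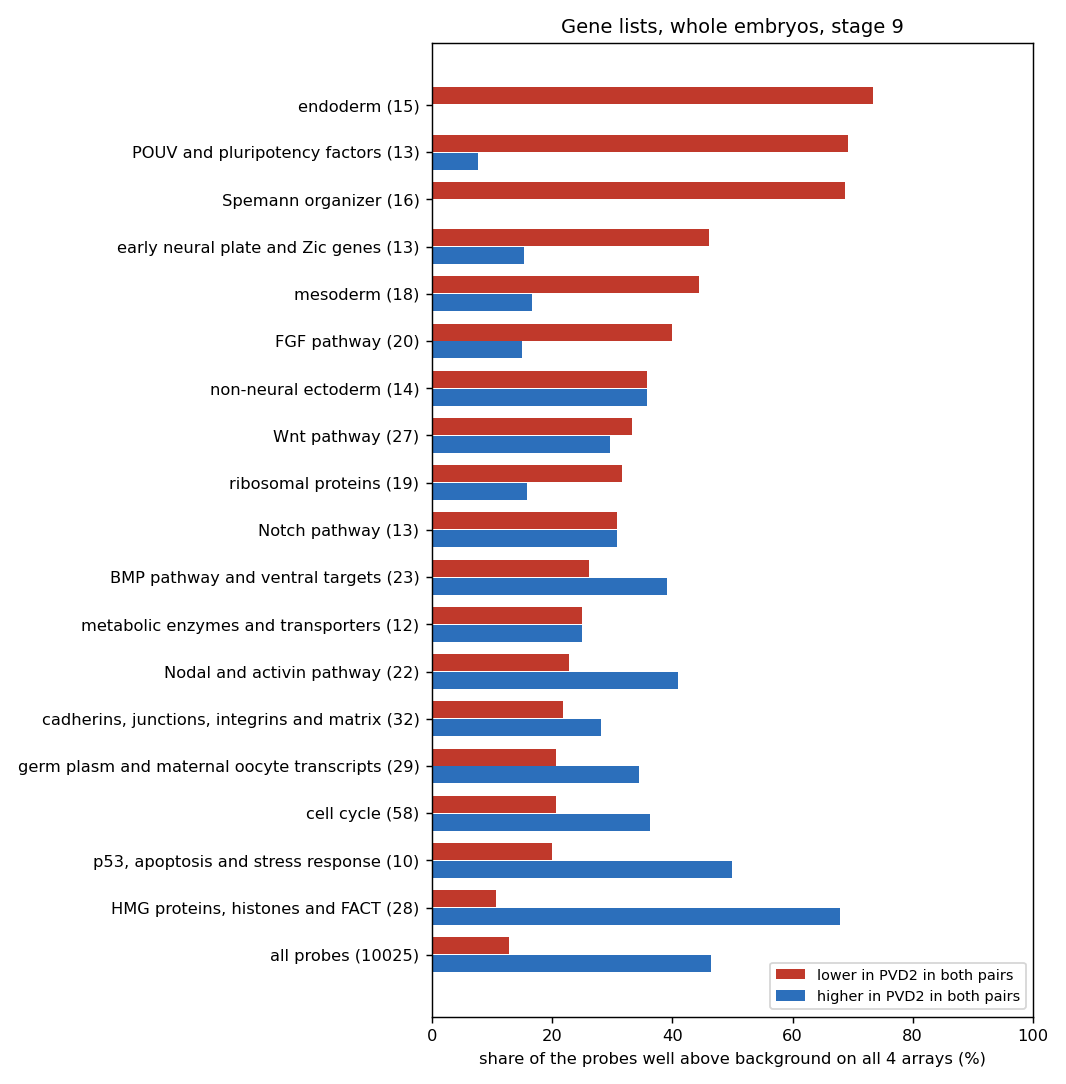
Share (%) of the bright probes of each list (number in parentheses) that were lower (red, above) or higher (blue, below) in PVD2 embryos in both replicate pairs, with all 10025 bright probes at the bottom. Endoderm, pluripotency and organizer lists reach 73.3%, 69.2% and 68.8% lower, against 12.7% of all bright probes. The lists were drawn up with earlier results of these data known.

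The falls were then followed on arrays of the other stage and tissue, which enter the fit's spread but not the differences that chose these probes. The spread of a probe was the same in all comparisons, so a small one favours agreeing pairs and calls on those arrays too. The shares lower in both pairs and the counts of calls are therefore not strictly like for like with those of all bright probes. In stage 10 embryos, 79 of the 80 falls that were bright there too were lower in both pairs (98.8%), against 18.3% of all bright probes. Their median was −1.02, against 0.06, and 21 of them were called, where 0.281% of bright probes were called lower at stage 10. In animal caps at stage 9, 74 of 80 were lower in both pairs (92.5%), against 26.6% of all bright probes. Their median was −0.81, against 0.01, and 13 were called, where 0.178% of bright probes were called lower in caps. From stage 9 to stage 10 in control caps, 19 of the 80 were called higher and 0 lower, where 1.19% of bright probes were called higher.

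The sizes differed between genes. arg1.L changed by −2.87 in stage 9 embryos, by −3.62 in stage 10 embryos and by −2.54 in stage 9 caps. sfrp2 changed by −2.34, −2.78 and −3.81 in the same order. krt70.S changed by −2.48 in whole embryos at stage 9 and by −0.33 in caps. spry2.L and spry2.S changed by −1.33 and −0.97 at stage 9, by −0.43 and −0.18 in whole embryos at stage 10, and by −1.17 and −1.45 in caps. admp.S changed by −1.75 in whole embryos at stage 9 and by −3.44 in caps. The list medians of organizer and endoderm genes, −0.67 and −0.49 at stage 9, were −0.29 and −0.12 at stage 10 and both −0.04 in caps, while that of the pluripotency list was −0.46, −0.51 and −0.39.

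**Figure D4:**
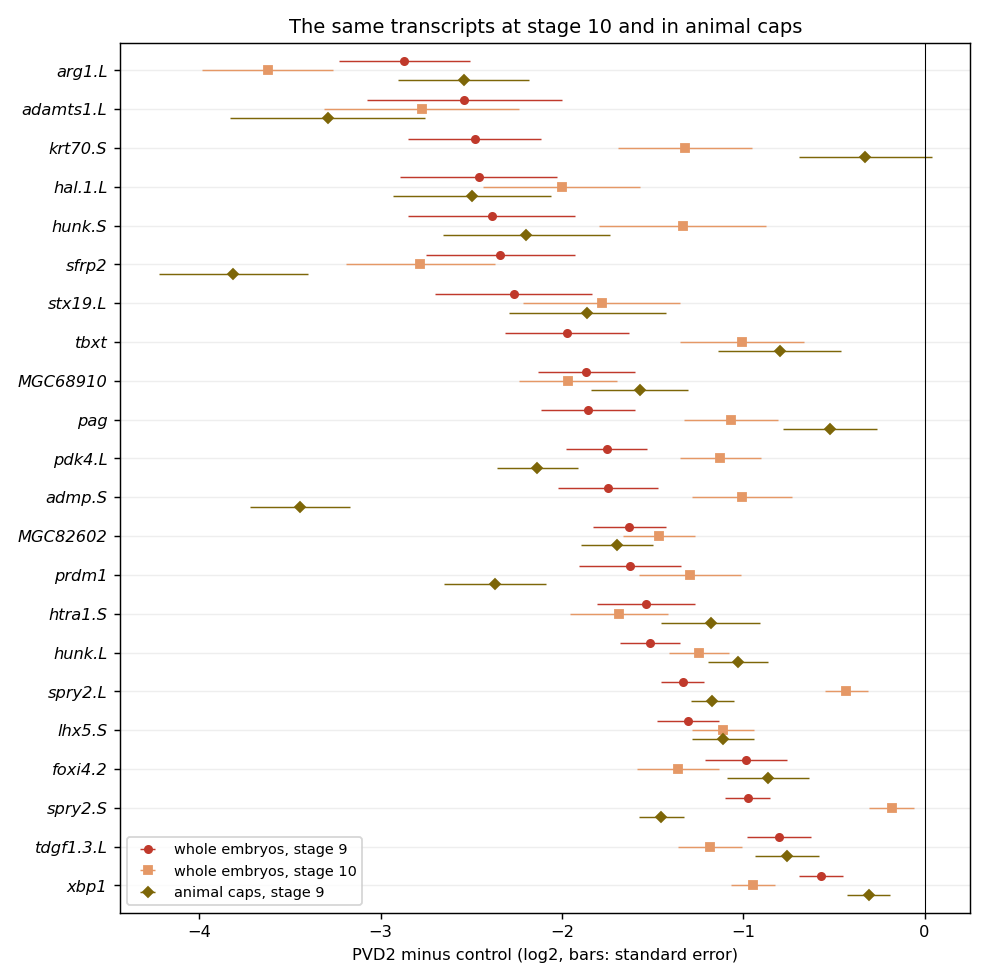
PVD2 minus control (log2, bars for the standard error) of 22 named bright falls in stage 9 embryos (red circles), stage 10 embryos (orange squares) and stage 9 caps (brown diamonds). All points lie below 0, from sfrp2 at −3.81 in caps to spry2.S at −0.18 in stage 10 embryos.

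The difference of the PVD2 effect between stages was called for 31 probes (0.144% of 21495), 12 positive and 19 negative, and for 0 of the 9965 probes that were well above background on all 8 whole embryo arrays. Between whole embryos and caps at stage 9 it was called for 313 probes (1.46%), 44 positive and 269 negative, and for 2 of the 9571 probes well above background on all 8 arrays. None of the named bright falls was among these calls, so limma did not tell the sizes above apart.

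Rises in PVD2 embryos were smaller. Of the 40 bright rises 6 have a gene name. rbpj.S had log2 values of 11.09 and 11.49 in PVD2 embryos, against 10.39 and 10.49 in control embryos, and was 1.8-fold higher (0.85 ± 0.18, SE, adjusted p = 0.0324). It lost the call whichever of the 4 arrays was left out (adjusted p = 0.0616 to 0.207, limma). The others, named after their values were seen, were the homeobox factor phox2a.S (2.15-fold, adjusted p = 0.0405), the clock factor arntl.L (log2 change 0.99, adjusted p = 0.0281), popdc2.S of the Popeye family (0.93, adjusted p = 0.0374), caveolin 1 (cav1, 0.87, adjusted p = 0.0171) and MGC83663 (0.60, adjusted p = 0.0297). phox2a.S had 8.07 and 8.55 in PVD2 embryos, against 6.48 and 7.94 in control embryos, without overlap but with control replicates far apart. Also picked afterwards, MGC52596, similar to the myogenic factor MyoD1, had 9.16 and 10.14 in PVD2 embryos, against 7.77 and 9.19 in control embryos (1.17, adjusted p = 0.0462), and its groups overlapped across slides. MGC82198, annotated with the histone gene Hist2h2ab, had 12.21 and 12.38 in PVD2 embryos, against 11.45 and 11.35 in control embryos (0.90, adjusted p = 0.007).

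The bright rises lay more often at the lower Cy3 signals. With the 9955 bright probes that had a normalized Cy3 level cut into 5 equal classes by Cy3 signal, from the dimmest up, the 40 rises were spread as 20, 9, 7, 1 and 3. The median change of all bright probes in these classes was 0.17, 0.17, 0.13, 0.06 and 0.03. The 81 falls with such a level were spread as 6, 21, 22, 19 and 13. The part of signal strength in the rises was not tested. At stage 10, 31 of the 40 rises were higher in both pairs (77.5%), against 39.2% of all bright probes, and in caps 28 of 39 (71.8%), against 26.3%. The limit given for such shares of the falls holds here too.

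Including dim probes, 842 probes fell (3.92% of 21495) and 267 rose (1.24%), 1109 in all. Of the 842 falls, 680 were on probes that were well above background on none of the 4 arrays, and 115 of the 267 rises were on probes well above background on both PVD2 arrays and neither control array. The total was 555 without control replicate 2 and 500 without PVD2 replicate 2. It was 0 by limma on the normexp-corrected intensities, where 622 probes had an unadjusted p under 0.05 and the lowest adjusted p was 0.130. For probes dim on every array no fold is given. Of the 11470 probes outside the bright class, 6.63% were called lower and 1.98% higher. The muscle and nervous system lists hold genes of differentiated cells that a blastula does not have. The list of differentiated muscle, with 17 probes of which 4 were bright, had 4 called lower, all outside the bright class. These 4, myog.L, tnni3.L, myh6.S and myf6.S, were well above background on none of the 4 arrays. The nervous system list, with 27 probes of which 6 were bright, had 7 called lower and 1 higher (mapt.L, adjusted p = 0.00867), also outside it.

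**Figure D5:**
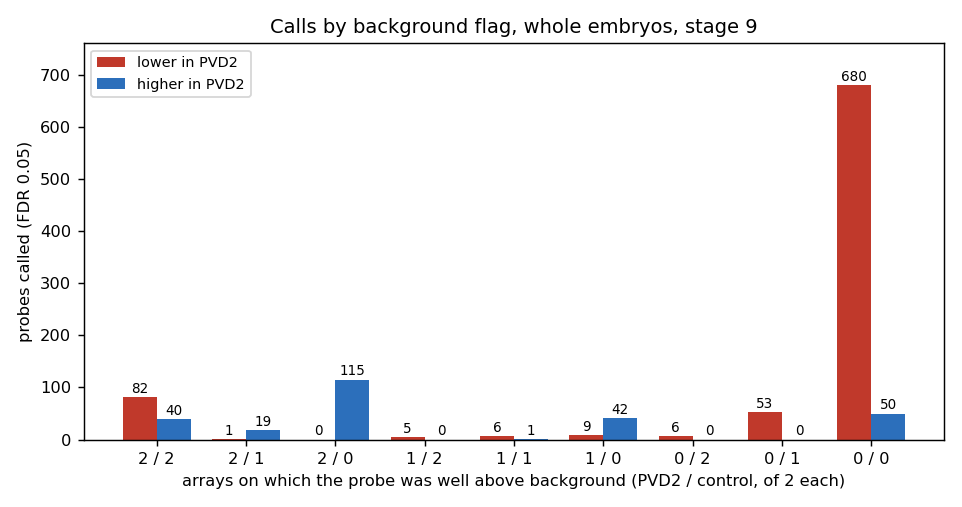
Number of probes called lower (red, left) and higher (blue, right) in PVD2 embryos, by the number of PVD2 and control arrays on which the probe was well above background. The tallest bar, 680 lower calls, stands over probes that were dim on all 4 arrays, and the bright class holds 82 lower and 40 higher calls.

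For probes measured in 1 group only, the fold is a Cy3 ratio after normexp, loess and between-array normalization, and it is open to dye bias. It is the bright group's mean over the dim group's, with the lowest signal well above background in place of any lower dim signal. For the named genes with a value no dim signal was that low, so their folds are plain ratios, not lower bounds. krt61.L, a keratin, was well above background on both control arrays and neither PVD2 array. It had log2 values of 4.41 and 4.51 in PVD2 embryos, against 8.04 and 6.57 in control embryos (adjusted p = 0.025, limma). By the Cy3 ratio it was 2.42-fold lower. The glutamate receptor subunit grik2 was called lower (adjusted p = 0.0184, limma), with a Cy3 ratio of 1.16. krt61.L stayed called only without control replicate 2 and grik2 only without control replicate 1. Of the 6 falls of this kind, 5 had a Cy3 ratio over 1 and 3 reached 1.5-fold.

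Of the 115 rises of this kind, 102 had a Cy3 ratio over 1, with a median of 1.12 and a maximum of 1.39, and 0 reached 1.5-fold. The largest named rises were all but 1 of this kind. inhbb, an activin subunit, had log2 values of 6.79 and 6.94 in PVD2 embryos, against 5.01 and 6.00 in control embryos (adjusted p = 0.00607), and tubgcp2.L, of the gamma-tubulin complex, had 7.51 and 6.90 in PVD2 embryos, against 6.00 and 5.93 in control embryos (adjusted p = 0.0065). Their Cy3 ratios were 1.22 and 1.35. The kinase limk1.L (adjusted p = 0.0184, limma) had a ratio of 1.07, and the dynactin subunit actr10.L (adjusted p = 0.00465) had 1.22. kcnd3.L, slc26a4l.L, thbs3 and nudt13.L had ratios of 1.21, 1.14, 1.02 and 1.12, and fabp7.L had no value. Of the 10 largest named rises, 4 stayed called whichever array was left out (inhbb, actr10.L, fabp7.L and tubgcp2.L). nudt13.L was called in 0 of the 4 fits (adjusted p = 0.103 to 0.212), kcnd3.L only without PVD2 replicate 1, and limk1.L, slc26a4l.L and thbs3 in 2 of them. Without PVD2 replicate 2 kcnd3.L changed by 0.77, and slc26a4l.L by 0.67 without control replicate 2. limk1.L, actr10.L, slc26a4l.L and thbs3 changed sign under normexp, to −0.040, −0.13, −0.25 and −0.061. The exception was sia2.S, a siamois homolog of the Wnt-responsive organizer network, which was well above background on both PVD2 arrays and 1 of 2 control arrays. It had 8.90 and 9.55 in PVD2 embryos, against 7.72 and 8.04 in control embryos (1.34, adjusted p = 0.0491). It stayed called only without control replicate 1 (1.77), with an adjusted p of 0.123 to 0.294 in the other 3 fits and a change of 0.92 without control replicate 2.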

How the data were processed

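The authors scanned the 2-colour arrays (sample in Cy3, common reference in Cy5) with Agilent Feature Extraction 9.5.1.1 and deposited unnormalized intensity values, a log10 ratio per spot, background subtracted and dye normalized, and a table of processed log10 values for all 16 arrays, whose computation is not given in the sources used here. Levels in that table followed log10 net Cy3 (r 0.943 to 0.978 over probes). Differences between stage 9 whole embryo arrays, over all pairs of them, followed those of the sample over reference ratio (r 0.962 to 0.983). It was converted to log2 and fitted with limma 3.58.1 in R 4.3.3, with 8 group means, the replicate number within each tissue as a block and all 16 arrays, so the spread is shared between groups (6 residual degrees of freedom). This stands in for the three-way ANOVA of the study. Scanner output was used for 15 arrays.

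Within a tissue, arrays with the same number shared a slide. Deviations from the group means correlated between same-numbered whole embryo arrays for each of the 6 group pairs, with r of 0.466 to 0.647. Between whole embryo and cap arrays of the same number, which lay on different slides, r was 0.434 to 0.604. The samples were paired by replicate number, and these values do not single out the shared slide. The labels do not say that replicates came from separate clutches, so p-values may measure technical spread. The number of arrays limits the precision. Control spots (1417) were left out.

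Named genes were the 20 largest falls and 10 largest rises among called probes with a gene name, the same direction in both pairs and both arrays of at least 1 group well above background, up to 4 members of each list with the smallest p, and the POUV genes. The results of 2 genes that met this rule are not reported here. Other genes named were picked after their values were seen. Gene names came from the array files and RefSeq (assembly Xenopus_laevis_v10.1), which named 3614 probes; 205 kept the name in the files and 17676 had none. Mouse homologs are the annotation of the study's supplement. The members and lists were chosen with earlier results of these data known. The procedure was tested on simulated data with independent noise, which does not check the background correction.

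Alternatives were the fit without the block, normexp (offset 50) with loess, the Feature Extraction ratio, the 15 arrays with scanner output, no background correction, median centring, quantile normalization, a filter on dim probes, whole embryo arrays only, the 4 arrays alone, other variance settings and each array left out.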

Additional observations from a re-analysis of the deposited data

Results flagged for a closer look

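The effect of PVD2 differed between stages 9 and 10 in whole embryos for 31 probes, by limma's test of the difference, 12 with a more positive effect at stage 9 and 19 with a more negative one. Between whole embryos and animal caps at stage 9 it differed for 313 probes, 44 more positive and 269 more negative in whole embryos. Of the probes well above background on all 8 arrays, 0 were among the 31 and 2 among the 313. The first of these 2, an expressed sequence tag without a gene name, had an effect in whole embryos minus that in caps of −1.94 on the log2 scale. The second, also without a gene name, had a difference of 1.07. Among the named genes well above background on both stage 9 whole embryo arrays of at least 1 group, actr10.L had a difference of 1.33. It was not well above background on the stage 9 control whole embryo arrays. Named genes dim on all 4 arrays were among the 313 too, such as myog.L (−2.09) and tnni3.L (−1.33).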

How the results depend on the processing

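The 1109 probes called in whole embryos at stage 9 became 684 with no replicate block, 0 with normexp and loess, 25 with no background correction, 137 with the filter on dim probes, 585 with the 8 whole embryo arrays, 610 without moderation, and 0 with the 4 stage 9 arrays alone, with the block or without it (2630 and 2024 at an unadjusted p under 0.05). Leaving out 1 array gave 500 to 1279. The 31 probes with a difference between stages became 8 with no replicate block, 0 with normexp, 3 with the Feature Extraction ratio, 6 with 15 arrays, 1 with no background correction, 197 with median centring, 115 with quantile normalization, 3 with the dim filter, 0 with whole embryo arrays only, 11 with trend and robust variance and 1 without moderation, and 9 to 299 without 1 array. The 313 probes with a difference between tissues became 56 with no replicate block, 0 with normexp, 27 with the Feature Extraction ratio, 171 with 15 arrays, 1 with no background correction, 471 with median centring, 0 with the dim filter, 171 with trend and robust variance and 1 without moderation, and 0 to 527 without 1 array. It could not be computed from whole embryo arrays only. Counts of 0 with the dim filter and without PVD2 replicate 2 had 890 and 1981 probes at an unadjusted p under 0.05.

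For the bright probes the alternatives were chosen after seeing the data. The 122 calls became 41 with no replicate block, 0 with normexp, 78 with 15 arrays, 22 with no background correction, 202 with median centring, 63 with the dim filter, 31 with whole embryo arrays only, 204 with trend and robust variance and 0 with the 4 arrays alone (239 with the block and 133 without it at an unadjusted p under 0.05), and 50 to 237 without 1 array. All 82 falls kept their direction in every one of these settings where they had a value, and of the 40 rises 35 did. With normexp 81 of the 82 falls had a value. Median centring shifted the median change of all probes by −0.18 and turned the split of 842 lower and 267 higher calls to 1233 and 149. The cause of these changes was not tested.

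Signs changed for some named genes. With normexp these were limk1.L (−0.040), actr10.L (−0.13), slc26a4l.L (−0.25) and thbs3 (−0.061). With no background correction they were inhbb (−0.21), actr10.L (−0.45), fabp7.L (−0.77), slc26a4l.L (−0.56), thbs3 (−0.47), nudt13.L (−0.040), mespa.L (−0.31), mpo.L (−0.35) and mapt.L (−0.33). With median centring pou5f3.3.L gave −0.11 and wee2.S −0.0058. Without 1 array at a time, pou5f3.1.L ran from −1.31 to 0.39, pou5f3.3.L from −0.12 to 0.26, efnb1.L from −0.58 to 0.094 and bicc1.S from −0.13 to 0.83. Signal over background limits the dim probes, which held most calls.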
